A study of Mus musculus with 30 samples.

Results

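The results concern the variable (V) and joining (J) gene segments of T cell receptor alpha chains in T cells taken from mouse tumours of 3 oral squamous carcinoma models. Members are every TRAV and TRAJ segment named on a productive alpha contig, a contig being an assembled receptor transcript and productive meaning an open reading frame. They comprised 134 segments, 91 TRAV genes in 20 families and 43 TRAJ genes, on 18977 productive alpha contigs of 39238 productive contigs of any chain and 63078 contigs in all. MOC1, MOC1E1 (also labelled MOC1esc1) and MOC22 are carcinoma cell lines grown as tumours in C57BL/6J mice. The mice were given either an isotype control, an anti-PD-1 or an anti-CTLA-4 antibody by intraperitoneal injection on days 3, 6 and 9 after inoculation, and MOC22 had no anti-CTLA-4 group. Each of the 8 conditions has 1 receptor library of tumour-infiltrating cells, described as immune cells for MOC1 and MOC1E1 and as T cells for MOC22, and 1 matching RNA library. The number of mice behind a library is not stated in the labels, so no condition has a replicate. Differences within a model have no test, and treatments were tested only over the models together.

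An alpha chain is made in the thymus by joining 1 of many TRAV segments to 1 of many TRAJ segments, with bases lost and added at the junction. That junction and its flanks form CDR3, the loop that lies over the bound peptide. Because the alpha locus keeps its remaining segments outside each joint, it can rearrange again with V segments farther out and J segments farther in. Most alpha chains differ from cell to cell, but invariant NKT cells, which see lipids on CD1d, share a TRAV11-TRAJ18 chain, and mucosal-associated invariant T (MAIT) cells, which see vitamin B2 metabolites on MR1, share a TRAV1-TRAJ33 chain.

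Cells with an alpha chain numbered 3428, 2834 and 2949 in MOC1, in the treatment order isotype, anti-PD-1, anti-CTLA-4 that holds for all series of values below, 592, 1203 and 964 in MOC1E1, and in MOC22, which has isotype and anti-PD-1 alone, 1675 and 1950. An alpha clone is a distinct V gene, J gene and CDR3 nucleotide sequence within 1 library. There were 2893, 2143 and 1365 clones in MOC1, 575, 954 and 514 in MOC1E1, and in MOC22 1462 and 630. The median UMI count per alpha contig was 3 to 6. Cells with 2 or more alpha chains made up 20.3 to 25.1% of the MOC1 libraries and 19.5% of the MOC22 anti-PD-1 library, against 5.91 to 10.0% of the other 4, and those with at least 3 numbered 85 to 167 in MOC1 and 0 to 9 elsewhere. Of the receptor barcodes, 83.1 to 99.2% were also in the matching RNA library, and no other RNA library held more than 0.931%. Receptor libraries shared 3 to 20 barcodes pairwise, 0 of them with the same alpha clone. Alpha-chain cells carried Cd3e, a T cell receptor subunit, at 1087 to 1981 CPM (counts scaled to 1000000 UMIs), and the myeloid transcript Lyz2 at 1.07 to 1141 CPM. Lyz2 was highest in MOC1E1, at 1129, 1141 and 104 CPM in treatment order, against 1.07 to 35.1 CPM in MOC1 and MOC22. In MOC1E1 with isotype it lay above Cd3e, which was at 1087 CPM.

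Shares of clones count each rearrangement once, and shares of cells count each cell once per distinct chain. Shares of clones add up to a whole, so a segment that takes a larger share lowers the others. Shares of cells add up to more than a whole, because a cell with several chains counts for each of them. The excess is larger in libraries with more such cells. Each interval is an exact (Clopper-Pearson) 95% interval and covers counting error only. Since different transcripts mark the main T cell classes, cells were also put in a CD8 class (a UMI of Cd8a or Cd8b1 and none of Cd4) or a CD4 class (the reverse). The CD8 class held 22.5, 46.2 and 61.9% of alpha-chain cells in MOC1, 25.5, 42.2 and 64.8% in MOC1E1, and in MOC22 59.4 and 88.1%, in treatment order. The treated libraries of each model thus held a larger share of CD8-class cells than the isotype library.

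TRAV6 held the highest mean share of clones, 17.5% (15.2 to 20.02% over 8 libraries), followed by TRAV7 at 14.02% (11.7 to 15.5%) and TRAV12 at 10.4% (8.17 to 14.4%). These families have several near-identical copies from duplicated stretches of the locus (47 of the 91 genes carry D or N in their name). Short reads may assign a chain to the wrong copy, so shares were summed by family. A clone is still defined by its exact copy, so 1 rearrangement assigned to several copies would count as several clones. In MOC22 under anti-PD-1, 1 CDR3 sequence with TRAJ7 was assigned to TRAV10, TRAV10D and TRAV10N. The effect on clone shares was not tested. Among J genes TRAJ23 led with 5.72% of clones (3.44 to 7.20%), then TRAJ7 with 5.40% (2.00 to 11.9%) and TRAJ31 with 4.84% (2.72 to 6.98%). All 43 J genes occurred in each library. The share of clone use that would have to move to another segment to turn an isotype library into the treated one was 3.69 to 10.3% for V families and 7.32 to 20.9% for J genes.

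Shares of cells differed more than shares of clones. The same measure over cells reached 20.6% for V families and 36.3% for J genes, both in MOC22 under anti-PD-1. In MOC22 TRAV7 held 14.4% of clones with isotype and 14.9% under anti-PD-1, but 13.7% and 31.1% of cells. In MOC1, TRAV6 held 15.97% of clones and 20.1% of cells with isotype, and 17.7% of clones and 31.8% of cells under anti-CTLA-4. In both cases the cell share differed more between the libraries than the clone share. Within a library, a cell share above the clone share does not by itself show larger clones, because cell shares add up to more than a whole. Cells with several alpha chains made up 25.1% of the MOC1 isotype library and 22.7% of its anti-CTLA-4 library. In MOC22 they made up 10.0% with isotype and 19.5% under anti-PD-1.

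The study's design asks first how use differed by treatment within a model. A V family or J gene with at least 20 clones in both libraries together was called where its clone share was at least 2-fold higher or lower than with isotype. In MOC1 under anti-PD-1, 0 of 18 V families and 0 of 43 J genes were called (0% of each). In MOC1 under anti-CTLA-4, 0 of 17 V families (0%) and 2 of 43 J genes (4.65%) were called, TRAJ7 higher and TRAJ11 lower. In MOC1E1, anti-PD-1 called 0 of 13 V families (0%) and 2 of 31 J genes (6.45%), TRAJ7 and TRAJ9, both higher. MOC1E1 under anti-CTLA-4 had 1 of 12 V families called (8.33%), TRAV9, higher, and 4 of 25 J genes (16%): TRAJ7 and TRAJ43 higher, TRAJ17 and TRAJ18 lower. MOC22 under anti-PD-1 had 1 of 14 V families called (7.14%), TRAV21, lower, and 7 of 37 J genes (18.9%): TRAJ7 and TRAJ47 higher (5.41%), and TRAJ17, TRAJ34, TRAJ42, TRAJ45 and TRAJ58 lower (13.5%). The median fold over all tested segments was 0.920 to 1.02 in these 5 comparisons. Of the 17 calls, 4 had intervals that did not overlap, TRAJ7 in 3 comparisons and TRAJ17 in MOC22. Among all tested segments, called or not, intervals did not overlap for 0 of 61 and 5 of 60 in MOC1 under anti-PD-1 and anti-CTLA-4. The counts were 0 of 44 and 1 of 37 in MOC1E1 and 2 of 51 in MOC22. In MOC1 under anti-CTLA-4 only 1 of the 5 was called. The others were TRAV14, higher, and TRAV4, TRAJ23 and TRAJ31, lower, each by less than 2-fold.

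**Figure D1:**
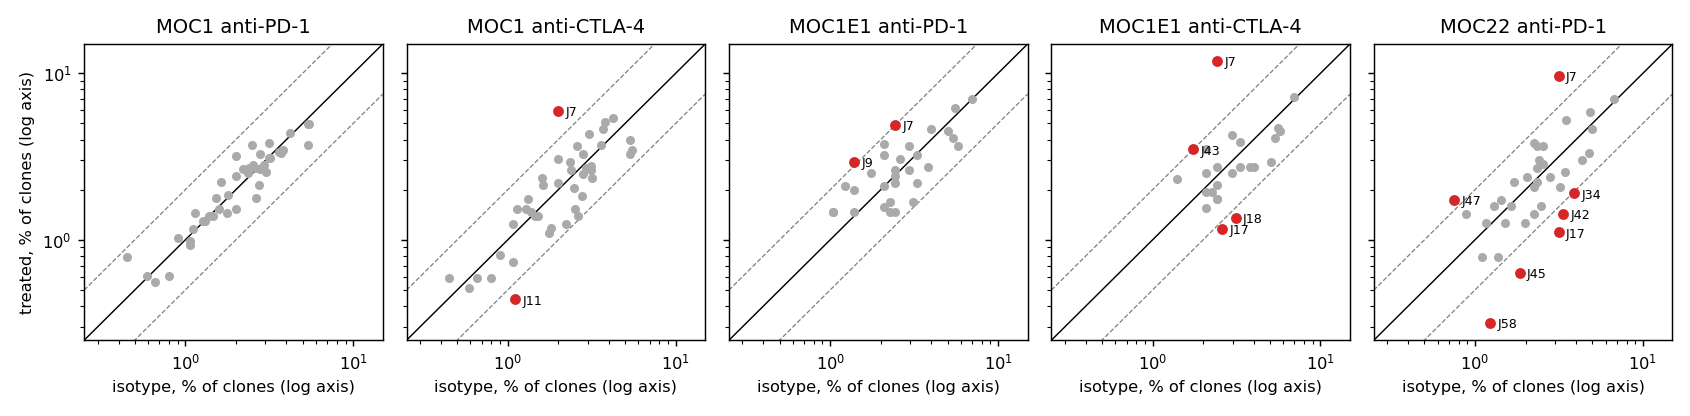
Clone share of each tested TRAJ gene with isotype (x axis, % of clones, log scale) against the treated library (y axis, % of clones, log scale), 1 panel per comparison. The solid line marks equal shares, dashed lines 2-fold differences, and red points the J genes called; TRAJ7 lies above the upper dashed line in 4 of the 5 panels.

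TRAJ7 was called higher in 4 of the 5 comparisons and TRAJ17 lower in 2, and no other segment was called in the same direction more than 1 time. TRAJ7 made up 2.00, 3.17 and 5.93% of clones in MOC1, 2.43, 4.93 and 11.9% in MOC1E1, and in MOC22 3.15 and 9.68%, in treatment order. Each treated library was above its isotype library, 1.58-fold and 2.96-fold in MOC1, 2.02-fold and 4.87-fold in MOC1E1, and 3.08-fold in MOC22. Within CD8-class clones TRAJ7 held 3.63, 6.42 and 11.01% in MOC1, 4.11, 10.9 and 21.1% in MOC1E1, and in MOC22 4.84 and 14.1%. In CD4-class clones it held 0 to 2.34% in the 8 libraries. The order of treatments within each model was therefore also present inside the CD8 class, whose size differed between libraries. The MOC1 RNA libraries carry 4 hashtags, which are barcoded antibodies; what they stand for is not stated. Hashtags of a library share clones: of the alpha clones with at least 2 tagged cells, 89.6, 86.0 and 57.2% lay in 1 hashtag in treatment order. TRAJ7's clone share spanned 1.17 to 2.49% over the isotype hashtags, 2.66 to 4.62% under anti-PD-1 and 5.44 to 6.45% under anti-CTLA-4, ranges of values that did not overlap. Intervals of single hashtags did overlap, such as 1.59 to 3.72% for hashtag 4 of isotype and 1.38 to 4.60% for hashtag 3 under anti-PD-1. Over CD8-class clones alone TRAJ7's share spanned 1.94 to 6.00%, 4.11 to 8.96% and 9.85 to 12.5%, so there the isotype and anti-PD-1 hashtags overlapped.

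TRAJ17 showed no such order in MOC1, where it held 2.39, 2.71 and 2.64% of clones in treatment order. In MOC1E1 its shares were 2.61, 3.04 and 1.17%, and in MOC22 3.15% (2.31 to 4.17%) with isotype and 1.11% (0.448 to 2.28%) under anti-PD-1. The MOC22 intervals did not overlap and those of MOC1E1 did. Other calls rest on few clones. In MOC22 under anti-PD-1, TRAJ58 had 2 of 630 clones against 18 of 1462 with isotype, 3.88-fold lower, TRAJ45 had 4 against 27, 2.91-fold lower, and TRAJ47 was 2.32-fold higher with 11 clones in each library. TRAJ11 in MOC1 was 2.52-fold lower under anti-CTLA-4, at 6 of 1365 clones against 32 of 2893. TRAJ9 in MOC1E1 was 2.11-fold higher under anti-PD-1 and TRAJ18 2.30-fold lower under anti-CTLA-4, with overlapping intervals.

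Treatments were also tested over the models together, on clone counts, with edgeR's quasi-likelihood test and Benjamini-Hochberg adjustment. The terms were model and treatment, with 3 residual degrees of freedom over 8 libraries. The fit was added after the data were seen, and it takes a treatment to differ from isotype by the same factor in each model. Under anti-PD-1, 1 of 43 J genes passed an adjusted p of 0.05 (2.33%). It was TRAJ7, higher by 1.07 on the log2 scale, with an edgeR adjusted p of 0.000263. Under anti-CTLA-4, 2 of 43 passed (4.65%): TRAJ7, higher by 2.01 with an edgeR adjusted p of 1.14e-10, and TRAJ18, with a log2 difference of -0.98 and an edgeR adjusted p of 0.0271. TRAJ18 held 2.63, 1.77 and 1.39% of clones in MOC1, 3.13, 1.68 and 1.36% in MOC1E1, and in MOC22 1.98 and 1.27%, so each of the 5 treated libraries lay below its isotype library. Of 19 V families 0 passed under either antibody (0%). Under each antibody 1 had an unadjusted p under 0.05, TRAV4 under anti-CTLA-4, with a log2 difference of -0.81 and an edgeR adjusted p of 0.0538.

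These calls rest on few libraries. Without MOC1E1 the edgeR adjusted p of TRAJ7 was 0.699 under anti-PD-1 and 0.294 under anti-CTLA-4, and without MOC22 it was 0.293 under anti-PD-1, while the log2 difference lay between 0.73 and 1.80. Over CD8-class clones alone TRAJ7 was higher by 1.23 and 2.00, with edgeR adjusted p of 0.0117 and 0.000376. The TRAJ18 call was lost over CD8-class clones (edgeR adjusted p = 0.414) and without MOC1 or MOC1E1 (0.428 and 0.436). TRAV4 was called over CD8-class clones, with a log2 difference of -1.15 and an edgeR adjusted p of 0.0404.

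Next, the isotype libraries were compared by model. MOC1E1 against MOC1 had 2 of 17 V families called (11.8%), TRAV9 and TRAV17, both lower, and 4 of 42 J genes (9.52%), TRAJ28 and TRAJ30 higher (4.76%) and TRAJ2 and TRAJ58 lower (4.76%). MOC22 against MOC1 had 0 of 17 V families (0%) and 1 of 43 J genes (2.33%), TRAJ30, higher. MOC22 against MOC1E1 had 0 of 14 V families (0%) and 2 of 36 J genes (5.56%), TRAJ6 and TRAJ58, higher. Intervals did not overlap for 2, 1 and 0 of the calls in these comparisons, TRAV9 and TRAJ30 in the first and TRAJ30 in the second. Among all tested segments, called or not, they did not overlap for 2 of 59, 3 of 60 and 1 of 50. Some calls rest on few clones: MOC1E1 had 2 of TRAV17 and 1 of TRAJ2, against 22 and 19 in MOC1. TRAJ30 held 2.49% of isotype clones in MOC1 (1.95 to 3.12%), 5.74% in MOC1E1 (3.98 to 7.97%) and 4.99% in MOC22 (3.93 to 6.24%), so MOC1 lay below both others without overlap. TRAV9 held 6.95% in MOC1 (6.05 to 7.94%), 2.78% in MOC1E1 (1.60 to 4.48%) and 3.83% in MOC22 (2.91 to 4.94%), and here MOC1 lay above both. These 3 comparisons share their libraries, and model and library cannot be told apart.

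The invariant NKT chain, TRAV11 joined to TRAJ18, was found in 195 cells. TRAV11 lies at chr14:53519303-53519859 and TRAJ18 at chr14:54200777-54200842, both annotated as gene segments of the alpha locus (GRCm38.p6, RefSeq), and all 195 chains had a CDR3 of 45 bases. They came in 12 nucleotide forms, of which 4 made up 177 cells. These 4 are shown, 5′ to 3′, because they differ from each other at a single codon, bases 10 to 12, marked by capitals:
NKT chain 1: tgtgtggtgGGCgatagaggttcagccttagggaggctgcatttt
NKT chain 2: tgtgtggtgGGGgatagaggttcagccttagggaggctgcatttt
NKT chain 3: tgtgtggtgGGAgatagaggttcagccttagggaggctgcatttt
NKT chain 4: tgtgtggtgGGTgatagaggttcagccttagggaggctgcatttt
The codons encode the same amino acid, glycine, in all 4. Chain 1 was found in 76 cells of 7 libraries, chain 2 in 56 cells of 5, chain 3 in 31 cells of 5 and chain 4 in 14 cells of 6. Over all 12 forms there were 4 protein sequences, and 179 of the 195 cells (91.8%) carried the commonest one, which was thus encoded by 6 different nucleotide forms.

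**Figure D2:**
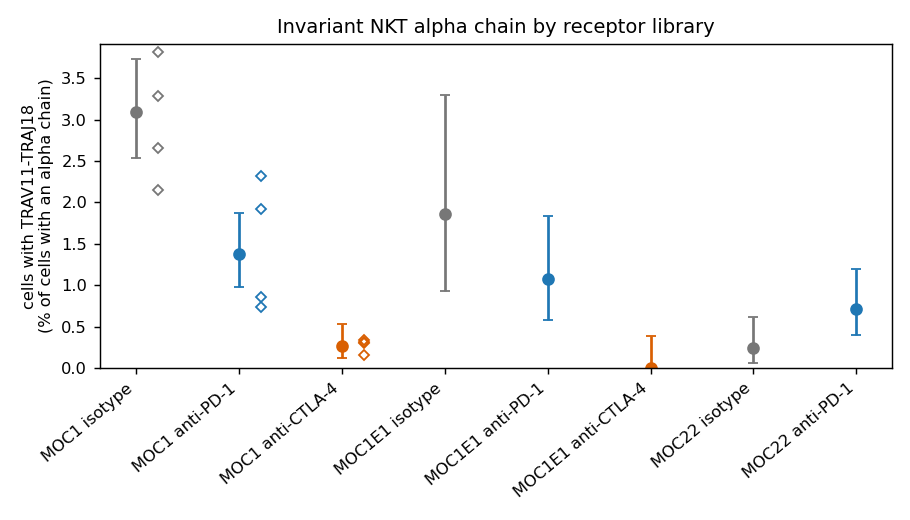
Share of alpha-chain cells with TRAV11-TRAJ18 (y axis, %) in each receptor library (x axis). Filled points are libraries with exact 95% intervals, open diamonds the 4 hashtags of each MOC1 library; MOC1 runs from 3.09% with isotype to 0.271% under anti-CTLA-4, and the hashtags of those libraries do not overlap.

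The chain was carried by 106 cells (3.09%, interval 2.54 to 3.73%) in MOC1 with isotype, 39 (1.38%, 0.980 to 1.88%) under anti-PD-1 and 8 (0.271%, 0.117 to 0.534%) under anti-CTLA-4. In MOC1E1 it was carried by 11 cells (1.86%, 0.931 to 3.30%), 13 (1.08%, 0.577 to 1.84%) and 0 of 964, which allows a share of up to 0.311%. In MOC22 it was carried by 4 cells (0.239%, 0.0651 to 0.610%) with isotype and 14 (0.718%, 0.393 to 1.20%) under anti-PD-1. The intervals did not overlap those of isotype in MOC1 with either antibody and in MOC1E1 under anti-CTLA-4, all lower, and overlapped in MOC1E1 and MOC22 under anti-PD-1. Over the MOC1 hashtags the share spanned 2.15 to 3.81% for isotype, 0.743 to 2.32% under anti-PD-1 and 0.156 to 0.333% under anti-CTLA-4. With at least 3 UMIs per contig the MOC1 anti-PD-1 share was 0.784% against 2.11% with isotype.

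Most of these cells had neither a CD4 nor a CD8 call, 91 of 106 in MOC1 with isotype. Within the cells of neither class, TRAV11-TRAJ18 made up 6.87% (5.57 to 8.37%), 3.89% (2.62 to 5.54%) and 1.61% (0.699 to 3.15%) in MOC1 in treatment order, the same ranking as over all cells. In MOC22 it made up 1.05% (0.216 to 3.02%) of those cells with isotype and 11.2% (5.52 to 19.7%) under anti-PD-1, without overlap, where these cells numbered 287 and 89. In MOC1E1 the values were 4.49, 2.80 and 0%, with overlapping intervals. Counted by alpha clone the chain gave small numbers, 9, 8 and 3 in MOC1, 5, 4 and 0 in MOC1E1, and in MOC22 2 and 5. That is 16.8 to 71.8 times the number expected from the separate V and J shares in the 7 libraries that held it. An alpha clone takes no account of the beta chain, so NKT cells with the same alpha sequence count as 1. In MOC1 with isotype the 9 alpha clones occurred with 113 distinct beta chains in 101 cells with a beta chain. The counts therefore do not give the number of T cell clones.

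The choice of cells did not use their beta chains and transcripts. In mice the invariant chain pairs mainly with Vβ8, Vβ7 and Vβ2, named TRBV13, TRBV29 and TRBV1 here. Of the 176 cells with a beta chain, 72.7% had TRBV13, 14.8% TRBV29 and 11.4% TRBV1, on 196 distinct beta chains. In MOC1 with isotype 99 of 101 cells (98.0%) had at least 1 of the 3 families, against 38.4% of the other cells with a beta chain. In the other 6 libraries that held the chain 87.5 to 100% did, against 22.004 to 40.4%. Zbtb16, which encodes the transcription factor PLZF of innate-like T cells, stood at 144, 129 and 285 CPM in the NKT-chain cells of MOC1 in treatment order, against 6.97, 1.37 and 0.547 CPM in the other alpha-chain cells. Its Poisson intervals lay above those of the other cells in 6 of the 7 libraries, and those of Klrb1c, which encodes NK1.1, in 7 of 7, at 48.5 to 306 CPM against 2.37 to 14.96 CPM. Cd8a and Cd8b1 lay below the other cells in 7 of 7 libraries, and Foxp3, the regulatory T cell factor, in 5. Other genes of the NKT list varied: Cxcr6 lay above in 4 libraries, Il2rb and Tbx21 in 3, Gata3 in 2 and Klrb1a and Rora in 1, while Tbx21, Gata3 and Rora lay below in 1 each. In MOC1 with isotype Gata3 was at 110 against 173 CPM and Rora at 198 against 273 CPM. Among gamma-delta T cell genes, Trdc, the delta chain constant gene, was at 0 in the NKT-chain cells of all 7 libraries, whereas the gamma chain constant genes Tcrg-C1 and Tcrg-C2 lay above the other cells in 4 and 3. In MOC1 with isotype these were at 81.0 against 7.70 CPM and 37.8 against 4.50 CPM. Ncr1, an NK cell receptor gene, lay above in 4 libraries. In MOC1E1 with isotype 1 of 10 barcodes carried 338 UMIs of Lyz2. Without it Zbtb16 was at 28.8 CPM and Klrb1c at 115 CPM there. A UMI of Zbtb16 was found in 37.7% of NKT-chain cells and 2.88% of others in MOC1 with isotype, at median depths of 4553 and 5375 UMIs.

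The MAIT chain, TRAV1 joined to TRAJ33, was rarer. It was found in 20, 2 and 2 cells of the MOC1 libraries in treatment order, in 8, 1 and 0 of MOC1E1, and in 0 and 4 of MOC22. The leading chain and the MOC22 chain are shown because they differ before a shared end of 25 bases, marked by capitals:
MAIT chain of MOC1 and MOC1E1: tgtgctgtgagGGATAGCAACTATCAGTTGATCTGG
chain of MOC22 under anti-PD-1: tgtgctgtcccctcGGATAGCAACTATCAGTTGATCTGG
The leading chain, of 36 bases, was carried by 27 cells of 5 libraries with 28 distinct beta chains. The MOC22 chain, of 39 bases, was carried by the 4 cells of 1 clone. In the 4 MOC22 cells Zbtb16 was at 0 UMIs, with an upper bound of its Poisson interval of 127 CPM, and 3 of them were in the CD8 class. The MOC22 chain thus shares its V and J genes with the MAIT chain but not its length.

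Of the V-J pairs possible, 674 occurred. The pair with the most clones in a library was TRAV6-TRAJ31 in MOC1 and MOC1E1 with isotype, TRAV6-TRAJ22 in MOC1E1 under anti-PD-1, TRAV7-TRAJ7 in MOC1E1 under anti-CTLA-4, TRAV14-TRAJ40 in MOC1 with either antibody and TRAV12-TRAJ31 in both MOC22 libraries. TRAV6-TRAJ31 in MOC1 with isotype had 31 clones where its V and J shares gave 24.8. TRAV14-TRAJ40 and TRAV12-TRAJ31 stood farther from that expectation.

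TRAV14-TRAJ40 had 14 of 2893 clones (0.484%, interval 0.265 to 0.811%) in MOC1 with isotype, 23 of 2143 (1.07%, 0.682 to 1.61%) under anti-PD-1 and 33 of 1365 (2.42%, 1.67 to 3.38%) under anti-CTLA-4. That was 1.18, 2.87 and 3.40 times the number expected from the V and J shares, and the anti-CTLA-4 interval lay above both others. In MOC1E1 it had 1, 1 and 7 clones, the last 5.04 times the expected number, and in each MOC22 library 1. Over the MOC1 hashtags the clone share spanned 0.235 to 0.868% for isotype, 0.443 to 1.54% under anti-PD-1 and 2.48 to 3.24% under anti-CTLA-4. The anti-CTLA-4 values thus lay above those of the other libraries, though intervals of single hashtags overlapped in part. The 33 anti-CTLA-4 clones gave 13, 10, 12 and 10 over the 4 hashtags, since a clone in several hashtags counts in each. The cells numbered 20, 32 and 89 in MOC1, of which 14, 20 and 50 were in the CD4 class and 3, 2 and 7 in the CD8 class. Of those CD4-class cells 4, 2 and 1 had a Foxp3 UMI. Among all CD4-class alpha-chain cells of these libraries the share with a Foxp3 UMI was 52.8, 30.7 and 3.17%, and its part in the result was not tested.

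Under either antibody, but not with isotype, most MOC1 clones of this pair also had 1 CDR3 length. A CDR3 of 45 bases was found in 42.9, 65.2 and 84.8% of TRAV14-TRAJ40 clones of MOC1 in treatment order, against 17.2, 18.5 and 18.1% of other clones with TRAV14 or TRAJ40. The 5 commonest chains were all found under anti-CTLA-4 and are shown because they are alike outside bases 9 to 16. Capitals mark the positions at which they are not all the same:
TRAV14-2, 18 cells: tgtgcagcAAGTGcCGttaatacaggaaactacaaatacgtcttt
TRAV14D-2, 10 cells: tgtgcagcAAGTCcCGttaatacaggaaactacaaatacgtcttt
TRAV14-2, 8 cells: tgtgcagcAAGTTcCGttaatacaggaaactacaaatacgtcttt
TRAV14-2, 6 cells: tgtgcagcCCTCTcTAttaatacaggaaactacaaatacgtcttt
TRAV14-2, 5 cells: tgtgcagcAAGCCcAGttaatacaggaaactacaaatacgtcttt
The first of these occurred with 10 distinct beta chains and the third with 10, while the second and the fifth had 1 each. The third was in 8 cells, so some barcodes held more than 1 beta chain, and doublets were not called. Of its cells 3 were in the CD8 class and 2 in the CD4 class, whereas the other chains shown had 0 in the CD8 class.

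TRAV12-TRAJ31 was the leading pair of MOC22. It had 32 of 1462 clones (2.19%, 1.502 to 3.08%) with isotype and 19 of 630 (3.02%, 1.83 to 4.67%) under anti-PD-1, 2.46 and 2.99 times the expected number. In the 6 other libraries it held 0 to 0.524% of clones, and its intervals there lay below those of MOC22. It was carried by 71 cells (4.24%, 3.33 to 5.32%) with isotype and 173 (8.87%, 7.65 to 10.2%) under anti-PD-1, so the cell share was higher under anti-PD-1 without overlap while the clone shares overlapped. Of these cells 63 and 172 were in the CD8 class. All 19 clones under anti-PD-1 and 75% of those with isotype had a CDR3 of 33 bases, against 18.6 and 6.61% of other clones with TRAV12 or TRAJ31. The 5 commonest chains, all with TRAV12D-3 as the V gene and together in 163 cells, are shown because they differ only within bases 8 to 13. Capitals mark the positions at which they are not all the same:
91 cells: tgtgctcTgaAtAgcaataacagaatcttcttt
30 cells: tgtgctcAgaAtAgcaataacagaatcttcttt
19 cells: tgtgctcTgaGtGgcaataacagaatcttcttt
14 cells: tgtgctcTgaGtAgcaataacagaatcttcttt
9 cells: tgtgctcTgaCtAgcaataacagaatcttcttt
Each occurred in both MOC22 libraries, with 14, 3, 10, 12 and 2 distinct beta chains in the order shown. The commonest was found in 6 cells with isotype and 85 under anti-PD-1, and the third in 14 and 5, so the chains differed in which library held more of their cells.

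**Figure D3:**
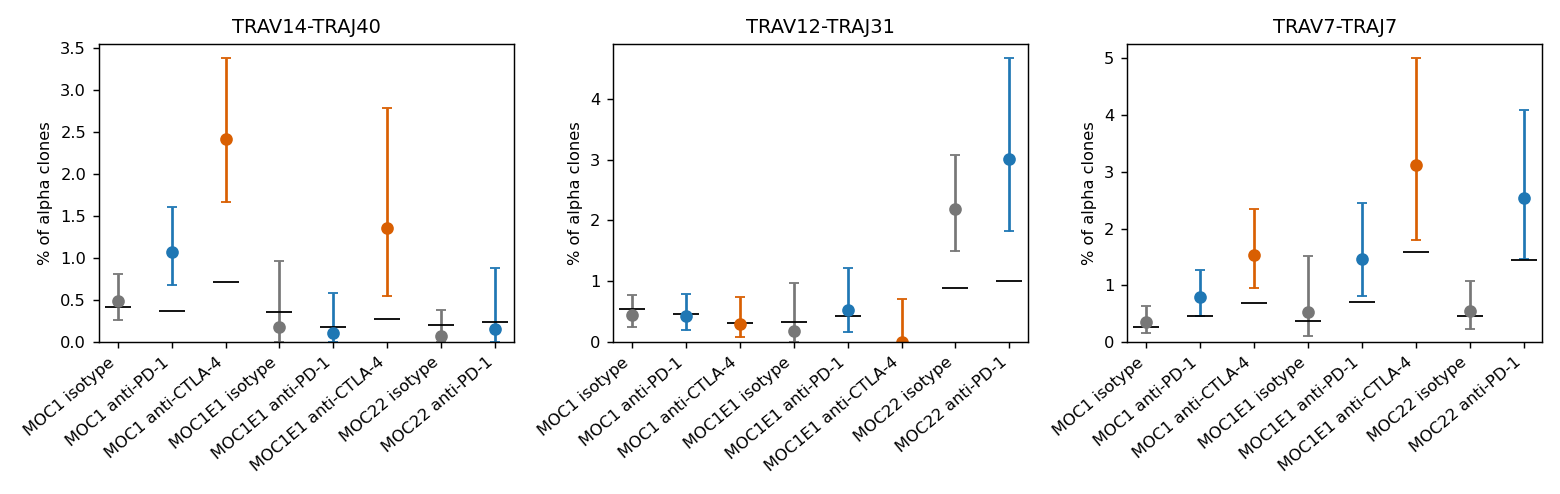
Share of alpha clones (y axis, %) held by 3 V-J pairs in each receptor library (x axis), with exact 95% intervals as bars and the share expected from the separate V and J shares as a black dash. TRAV14-TRAJ40 is highest in MOC1 under anti-CTLA-4 at 2.42%, TRAV12-TRAJ31 in MOC22 under anti-PD-1 at 3.02% and TRAV7-TRAJ7 in MOC1E1 under anti-CTLA-4 at 3.11%.

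TRAV7-TRAJ7 followed TRAJ7. It held 0.346, 0.793 and 1.54% of clones in MOC1, 0.522, 1.47 and 3.11% in MOC1E1, and in MOC22 0.547 and 2.54%, in treatment order. It was 1.21 to 2.21 times the expected number in the 8 libraries. By cells it reached 11.2% in MOC1E1 under anti-CTLA-4 and 11.7% in MOC22 under anti-PD-1.

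The largest clone of each library used a different V-J pair in 8 of 8 libraries. It was TRAV7D-2 with TRAJ27 in MOC1 with isotype (44 cells, 1.28%), TRAV7N-4 with TRAJ15 under anti-PD-1 (221 cells, 7.80%) and TRAV6-7-DV9 with TRAJ26 under anti-CTLA-4 (100 cells, 3.39%). In MOC1E1 it was TRAV16N with TRAJ23 (9 cells, 1.52%), TRAV13D-1 with TRAJ7 (63 cells, 5.24%) and TRAV8D-2 with TRAJ7 (42 cells, 4.36%) in the same order. In MOC22 it was TRAV8D-2 with TRAJ23 with isotype (68 cells, 4.06%) and TRAV7-5 with TRAJ30 under anti-PD-1 (125 cells, 6.41%). All 8 held CD8-class cells and 0 CD4-class cells. Single clones held most cells of some J genes: in MOC22 under anti-PD-1, 1 clone held 67.6% of the TRAJ30 cells and another 84.2% of the TRAJ9 cells.

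In MOC1 the largest anti-PD-1 clone and the second-largest anti-CTLA-4 clone, a pair singled out after their values were seen, were near-identical. The alpha chains are shown because they differ by 1 base of 39, T8C counted from 1 at the 5′ end of the CDR3 sequence and marked by the capital, and are assigned to different copies of TRAV7:
TRAV7N-4 with TRAJ15, anti-PD-1: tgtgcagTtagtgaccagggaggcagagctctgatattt
TRAV7-4 with TRAJ15, anti-CTLA-4: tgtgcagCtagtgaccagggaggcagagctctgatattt
Both paired with the same beta chain of 30 bases, TRBV1 with TRBJ1-1:
beta chain of both: tgcagtgacagggacacagaagtcttcttt
This beta chain was found in 220 of the 221 cells of the first clone and 71 of the 76 of the second. Over the series it was found in 344 cells, 1, 263 and 80 in MOC1 in treatment order and 0 in the 5 other libraries. In the anti-PD-1 library 201 of the 221 cells carried the same hashtag, while the anti-CTLA-4 clone was spread over 4, with 44 of 76 cells in the largest. The alpha chain of the latter was also found in 3 anti-PD-1 cells and 1 isotype cell, and that of the former in 1 isotype cell.

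CD8-class and CD4-class clones were then compared within each library, the library being the unit, with a two-sided exact permutation test that flips the sign of the 8 differences (smallest possible p 0.0078) and Benjamini-Hochberg adjustment. V use differed between the classes: 6 of 19 V families passed an adjusted p of 0.05 (31.6%), 4 higher in CD8-class clones and 2 higher in CD4-class clones. TRAV14 held 7.55% ± 1.48 (SD, n = 8) of CD8-class clones and 13.6% ± 4.17 of CD4-class clones, a difference of -6.10 points, exact p = 0.0078, adjusted p = 0.0297. TRAV4 held 3.95% ± 1.503 and 9.05% ± 2.34, a difference of -5.10 points with the same exact p. Both were higher in the CD4 class in 8 of 8 libraries. Higher in the CD8 class in 8 of 8 libraries, with the same exact p, were TRAV3 at 7.52% ± 2.02 against 4.51% ± 0.773, TRAV9 at 6.50% ± 2.63 against 3.49% ± 1.81 and TRAV1 at 1.35% ± 0.702 against 0.476% ± 0.369. TRAV1 rested on few clones, 6 to 17 in a library over all classes. It held 0% of the 112 CD4-class clones in MOC22 under anti-PD-1. TRAV16 was higher in 7 of 8 libraries, at 5.95% ± 1.72 against 3.21% ± 1.31 (exact p = 0.0156, adjusted p = 0.0495). Of the 19 families 9 had an unadjusted p under 0.05.

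**Figure D4:**
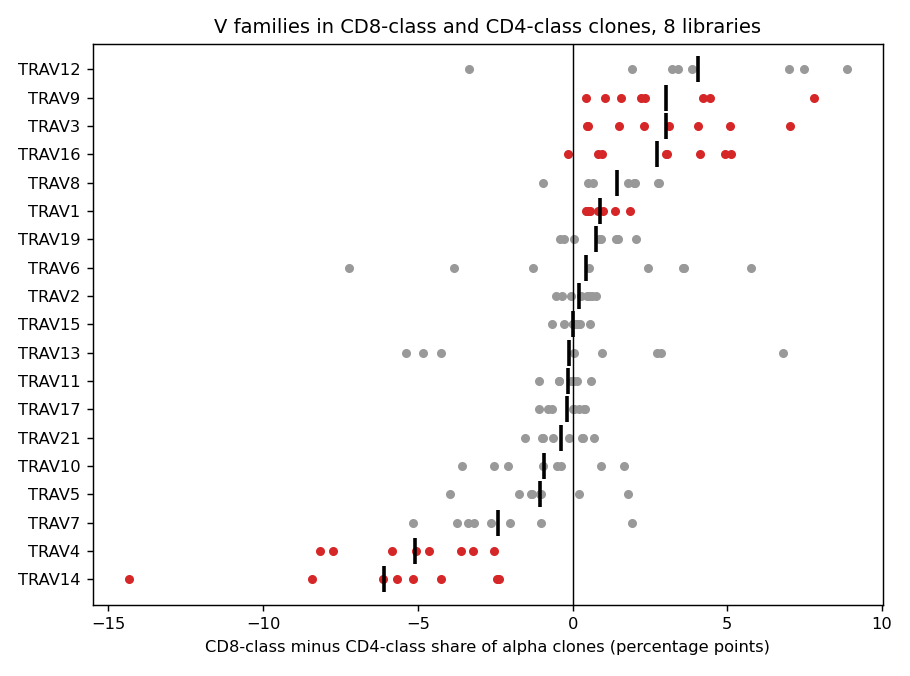
Difference in clone share between CD8-class and CD4-class clones (x axis, percentage points) for each of 19 V families (y axis). Points are the 8 libraries and black bars their means, and red marks the 6 families that pass the exact test; TRAV14 and TRAV4 lie left of 0 and TRAV3, TRAV9 and TRAV1 right of 0 in 8 of 8 libraries.

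The largest TRAV14 difference, -14.3 points, was in MOC1 under anti-CTLA-4, the library with most TRAV14-TRAJ40 clones, and the smallest, -2.37 points, in MOC1E1 with isotype. Among the 43 J genes 0 passed the exact permutation test after adjustment (0%). 10 had an unadjusted p under 0.05, and the smallest adjusted p was 0.112. The 3 J genes at the smallest possible p differed in the same direction in 8 of 8 libraries. TRAJ7 held 9.52% ± 6.04 of CD8-class and 1.43% ± 0.759 of CD4-class clones, TRAJ40 1.97% ± 0.772 and 5.01% ± 2.19, and TRAJ43 1.96% ± 0.881 and 3.06% ± 0.704. With 8 libraries and 43 genes the adjustment needs more genes at the smallest p than were seen. As a background for the classes, barcodes of the MOC1E1 libraries with at least 10 Lyz2 UMIs and no receptor had a Cd8a or Cd8b1 UMI in 0.227 to 2.39% and a Cd4 UMI in 0 to 1.26%, at median depths of 4959 to 7268 UMIs. Alpha-chain cells of the same libraries had them in 35.6 to 77.05% and 22.03 to 40.2%, at 5375 to 5690 UMIs.

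V and J choice were tied by position on chromosome 14. The TRAV genes span chr14:52427967-53977678 and the TRAJ genes chr14:54155005-54218842 (GRCm38.p6, RefSeq), and all 134 segments matched entries of that table. Ordering V segments by distance from the J segments and J segments by distance from the V segments, Spearman's rho over clones was -0.411 to -0.489 in the 8 libraries, with V counted from the far end and J from the near end (514 to 2893 clones a library, a description with no p). V segments far from the J cluster were thus joined more often to far J segments. The families nearest the J segments, TRAV17, TRAV18, TRAV19 and TRAV21, had a median J order of 12 to 14 among the 60 listed J segments, against 30 to 35 for the other families. In MOC1 with isotype 85% of their 100 clones used the 20 nearest J segments, against 23.8% of the 2793 others.

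**Figure D5:**
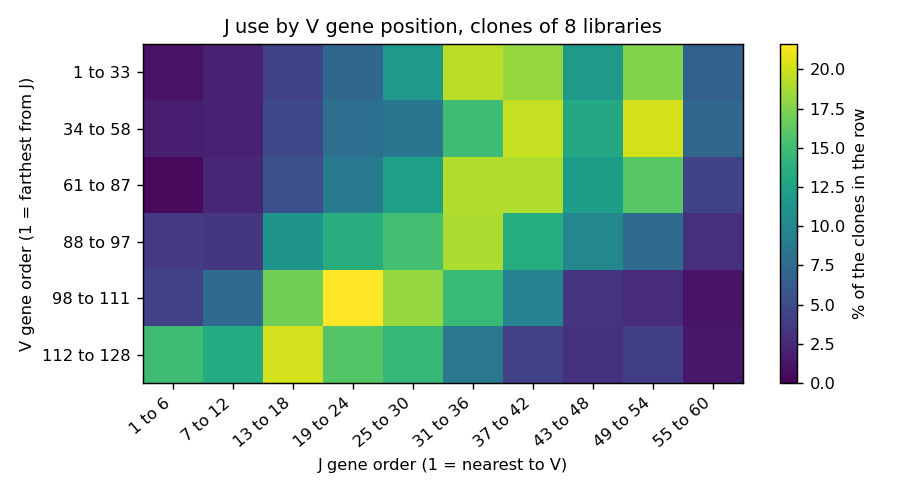
Share of the clones of each V position group (rows, V order 1 being farthest from the J segments) that used each J position group (columns, J order 1 being nearest to the V segments), in % of the row, over the 8 libraries. The brightest cells run from the lower left, near V with near J, to the upper right, far V with far J.

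Most alpha chains were found in 1 library. Of 10060 distinct chains 364 occurred in at least 2 libraries and 9 in at least 5. The 9 held the 4 NKT chains above and the leading MAIT chain, and in addition 2 TRAV7D-2-TRAJ7 chains, 1 TRAV21-DV12-TRAJ57 chain and 1 TRAV7D-2-TRAJ23 chain. The most widespread, with TRAJ7, is shown with the end that 335 of all 436 TRAJ7 clones carried in capitals:
TRAV7D-2 with TRAJ7: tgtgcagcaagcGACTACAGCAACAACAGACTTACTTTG
It occurred in 95 cells of 7 libraries with 15 distinct beta chains, of which 1 was in more than 1 library. The TRAV21-DV12-TRAJ57 chain occurred in 23 cells of the 3 MOC1 libraries and 2 of MOC1E1, with 19 beta chains. TRAJ7 made up 10.2% of the shared chains and 3.78% of all chains. That 27-base end was kept in 48.3, 79.4 and 86.4% of TRAJ7 clones in MOC1, 78.6, 78.7 and 91.8% in MOC1E1, and in MOC22 54.3 and 88.5%, in treatment order. Against isotype this was 31.1 and 38.1 points more in MOC1, 0.152 and 13.2 in MOC1E1, and 34.2 in MOC22. For the ends of the other J genes the median difference was 0.113 to 7.26 points. Of the 43 J genes, 1 and 0 lay above TRAJ7 in MOC1, 21 and 15 in MOC1E1, and 4 in MOC22. The ends were read from these same clones, treated libraries included, so they were not set apart from the values compared. TRAJ44, counted among the 43, had an end of 0 bases and could not differ. Other J genes rest on few clones, such as TRAJ35 with 60, whose differences ran from -83.3 to 75 points. The shared chains had the same median CDR3 length, 42 bases, as those of 1 library.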

How the data were processed

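Libraries came from the 10x 5′ single-cell kit and its V(D)J enrichment kit, per the labels' protocols. Receptor contigs were assembled with Cell Ranger 3.0.2 and the mouse build mm10, per the submitters' processing notes; the MOC1 matrices name version 3.1.0, per the file headers. The deposited receptor tables give contigs with genes, CDR3 sequences and UMI counts, and the deposited RNA matrices give whole UMI counts per gene and barcode. Which version made which table is not stated. For MOC22 the isotype receptor description points to the anti-PD-1 table and the reverse; tables were assigned by the treatment in their name, and their barcodes lay in the RNA library of that treatment. Tables named MOC1 without a further word belong to MOC1E1 by their labels.

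Productive alpha contigs were counted once per cell and once per clone with Python 3.11.15, pandas 2.3.3, numpy 2.4.6 and scipy 1.17.1, and drawn with matplotlib 3.10.9. Doublets were not called; cells with exactly 1 alpha and 1 beta chain were an alternative, as were at least 3 UMIs per contig, barcodes also in the RNA library, the deposited clonotype numbers, cells in place of clones, 10 clones in place of 20, and 1.5-fold in place of 2-fold. A hashtag was assigned at 10 or more UMIs and 3 times the next. Clone counts of segments with at least 20 clones in all were fitted with edgeR 4.0.16 in R with all clones of a library as its size; this fit was added after the data were seen. Both tests were run on simulated data with a set spread between libraries, which for the permutation test was sampling alone. Such data cannot show how the tests behave with the unknown spread between real libraries. Intervals cover counting error only, and a count of 0 allows up to 3 counts.

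Named are the segments of the 2 invariant chains, the 3 leading V families and J genes, segments called in at least 2 treatment comparisons, up to 3 called segments per comparison with the largest fold, the largest clone and leading pair of each library, and segments that passed the CD8 and CD4 test. A mention of TRAJ7 in at most 2 sentences was planned; it is described further because other parts of the rule name it. Other named calls and the shared beta chain of TRAJ15 were chosen after their values were seen. The members and lists were chosen with earlier results of these data known. Germline segment sequences were not used here.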

Additional observations from a re-analysis of the deposited data

Results flagged for a closer look

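Outside the alpha genes, 123 productive contigs joined a delta V gene (TRDV1 in 62, TRDV2 in 61) to a TRAJ gene, and all 123 carried the alpha constant gene. The deposited tables give their chain type as Multi, and they entered no comparison above. Their cells made up 0.963, 0.368 and 0.685% of the receptor barcodes in MOC1 (isotype, anti-PD-1, anti-CTLA-4), 0.776, 0.639 and 0.303% in MOC1E1 in the same order, and 0.256 and 0.383% in MOC22 (isotype, anti-PD-1). They are given because they lie outside the alpha genes compared and occurred in each of the 8 libraries.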

How the results depend on the processing

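By replicate number, no paired analysis was possible because each model and treatment has 1 receptor library; classes were paired within libraries, and the edgeR fit has model as a term. The TRAV11-TRAJ18 share in MOC1 with isotype was 3.94% over cells with 1 alpha and 1 beta chain and 2.11% with at least 3 UMIs per contig, and under anti-PD-1 0.784% with at least 3 UMIs, against 3.09 and 1.38% reported. The order of the MOC1 libraries did not change. The 17 calls by treatment became 33 with deposited clonotype numbers, 67 with cells in place of clones and 54 at 1.5-fold. The 9 calls by model became 18, 30 and 45 under the same settings, and 14 with at least 10 clones. The cause was not tested. Within models the TRAJ7 clone share was above isotype in all 30 recomputed folds; its fold in MOC1E1 under anti-PD-1 was 1.96 with at least 3 UMIs, below the limit, and in MOC1 under anti-PD-1 2.21 with clonotype numbers and 3.55 with cells. V families that passed the CD8 and CD4 test numbered 4 with cells, 6 with at least 50 clones and 7 with at least 2 UMIs of the class. TRAV16 passed with neither cells nor 2 UMIs, and TRAV3 not with cells. The 36 differences recomputed for the 6 families kept their sign. In the same permutation test the smallest possible p is 0.0625 without MOC1 or MOC1E1, which cannot pass. Without MOC22 it is 0.0312, which passes after adjustment only if many families reach it, and the 6 families did not pass there. In the edgeR fit over models, J genes that passed under anti-PD-1 numbered 1 as reported and 0 without MOC1E1 or MOC22, and under anti-CTLA-4 2 as reported, 0 without MOC1E1, and 1 without MOC1 or over CD8-class clones. V families that passed under anti-CTLA-4 numbered 0 as reported, 2 over CD8-class clones or cells, and 1 without MOC1 or MOC22. The 3 libraries of MOC1E1 and the anti-PD-1 library of MOC22 have the fewest clones, 514 to 954.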
